A study of Mus musculus with 4 samples.

Results

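The expression difference between Tet2 knockout and Tet2 wild-type bone marrow cells was described in cells that had been treated with ruxolitinib, using 9908 of the 24340 genes in the deposited table. These were all genes whose FPKM (fragments per kilobase of transcript, scaled to the fragments of the library) averaged 1 or more over the 4 libraries, after 331 genes of the X, Y or mitochondrial chromosomes and 232 autosomal small RNA genes had been left out. Of these genes 9612 were protein-coding. All cells were from mice of the C57BL/6 strain, were selected as Lin-cKit+ (without markers of mature lineages, with the stem cell factor receptor Kit) and carried JAK2V617F. The libraries compared were JAK2V617F;Tet2-/- cells with ruxolitinib and JAK2V617F;Tet2+/+ cells with ruxolitinib, called the ruxolitinib pair. The untreated JAK2V617F;Tet2-/- and JAK2V617F;Tet2+/+ libraries, called the control pair, are given beside them. Each group was 1 library, so no value has an error and no test between genotypes was possible. The dose and duration of ruxolitinib, the age of the mice, the number of animals per library and the driver of the Tet2 deletion are not given in the labels. Nor do they say whether control and treated cells were taken from 1 animal.

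TET2 is a dioxygenase that oxidises methylated cytosine in DNA, a step towards demethylation, and it is often mutated in blood cancers. JAK2 is the kinase beneath many cytokine receptors, and its V617F form signals without a bound cytokine and drives myeloproliferative disease. Ruxolitinib blocks the kinases JAK1 and JAK2. The ruxolitinib pair therefore shows the genotype difference while JAK signalling is inhibited in both libraries.

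Each gene was described by the log2 ratio of FPKM + 1, knockout over wild type, so that a positive ratio means higher in the knockout library. Tet2 (chromosome 3, 133463679 to 133545139, minus strand, GRCm38) was at 4.39 FPKM in knockout and 5.05 FPKM in wild type with drug, and at 3.62 FPKM in knockout and 4.69 FPKM in wild type without it. A value over the whole gene does not check the deletion of an exon. Its relative Tet3 was at 12.2 FPKM in knockout and 12.6 FPKM in wild type with drug, and Tet1 did not exceed 0.178 FPKM in any library. The female-specific transcript Xist was at 62.2 FPKM in knockout and 0.0309 FPKM in wild type with drug, while the Y-linked gene Ddx3y was at 0.00886 FPKM in knockout and 18.7 FPKM in wild type. Both genes split the control pair in the same way, so sex and genotype cannot be told apart in any ratio below. Low values fell near whole multiples of what 1 fragment is worth, which gave estimated depths of 52200000 fragments for knockout and 47800000 for wild type with drug, and 54600000 for knockout and 44200000 for wild type without. A 1-kilobase transcript at 1 FPKM thus rests on 44.2 to 54.6 fragments.

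The selection marker Kit was at 562 FPKM in knockout and 647 FPKM in wild type with drug. Transcripts of mast cell granules were among the most abundant in every library, while the granulocyte progenitor genes Mpo and Elane did not exceed 1.31 FPKM and 0.0256 FPKM. The labels name only the Lin-cKit+ selection, and mast cells are one of the cell types that carry Kit.

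Most genes differed little between the genotypes under ruxolitinib. The median log2 ratio over all 9908 genes was 0.00, with quartiles of -0.14 and 0.13, and 94.9% of genes lay within 1.5-fold. Higher in knockout by 2-fold or more were 70 genes, which is 0.706% of those measured, and lower by as much were 73, which is 0.737%. The 1.5-fold mark was passed by 239 higher genes (2.41%) and 270 lower ones (2.73%). These 1.5-fold shares are the background for the list counts with drug below. Without drug, the 2-fold counts were 64 higher (0.646%) and 113 lower (1.14%), and the 1.5-fold counts 321 higher (3.24%) and 444 lower (4.48%). Rescaling every library to the same total, the TPM scale, moved the median gene up by 0.13 and gave 117 higher and 68 lower genes with drug. The balance of higher and lower genes therefore depends on the scaling. In the authors' deposited table, which compares the same libraries, 665 of 9899 genes (6.72%) were called higher and 605 (6.11%) lower at a q-value under 0.05. Those calls rest on 1 library a side and included 805 genes under 1.5-fold.

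The 2-fold genes of the ruxolitinib pair were largely those of the control pair. Of the 70 higher genes, 48 were also at least 2-fold higher without drug, which is 68.6% of the list with drug and 75% of the list without. Of the 73 lower genes, 62 were also lower without drug, 84.9% of the list with drug and 54.9% of the list without. Only 6 of the higher and 1 of the lower genes were under 1.5-fold in the control pair. The pairs share no library, but they may share animals.

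**Figure D1:**
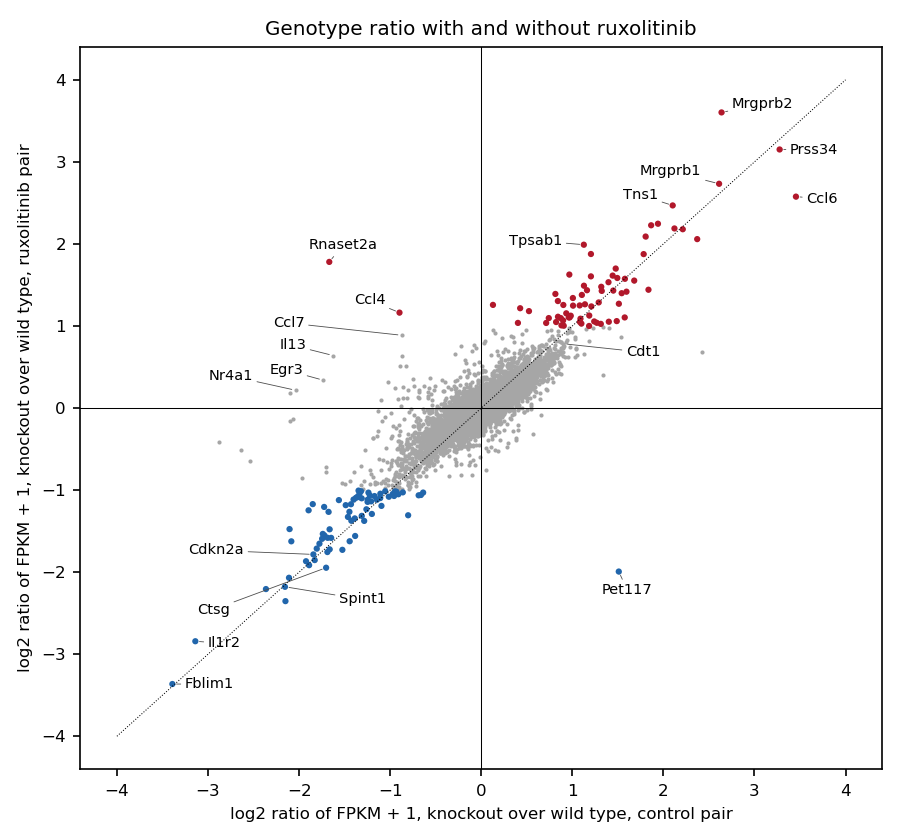
Log2 ratio of FPKM + 1, knockout over wild type, in the ruxolitinib pair (vertical axis) against the control pair (horizontal axis), 1 point per gene, with genes at 2-fold or more in the ruxolitinib pair in red (higher in knockout) or blue (lower). Most coloured points lie near the dotted line of equal ratios, while Rnaset2a, Ccl4 and Pet117 lie in the opposite quadrants. The pseudogene Rpl34-ps1, listed at 0 in both knockout libraries, is outside the axes.

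Among protein-coding genes that reached 5 FPKM in either library of the ruxolitinib pair, the highest ratios belonged to mast cell receptors, a mast cell and basophil protease and chemokines. Mrgprb2 (chromosome 7, 48550965 to 48558086, minus strand), the receptor through which mast cells answer peptides and drugs without IgE, was at 29.6 FPKM in knockout and 1.52 FPKM in wild type with drug, and at 10.01 FPKM in knockout and 0.769 FPKM in wild type without it. Both knockout libraries lay above both wild-type libraries, and the ratio was 3.60 with drug and 2.64 without. Its neighbour Mrgprb1 was at 6.83 FPKM in knockout and 0.177 FPKM in wild type with drug, a ratio of 2.73. Prss34 (chromosome 17, 25298394 to 25300165, plus strand), a serine protease of basophils and mast cells, was at 12.8 FPKM in knockout and 0.548 FPKM in wild type, a ratio of 3.15. The tryptase Tpsab1 was at 42.9 FPKM in knockout and 10.03 FPKM in wild type with drug, and at 52.0 FPKM in knockout and 23.3 FPKM in wild type without it. For all 4 genes every knockout library exceeded every wild-type library. How many of all genes separate the genotypes in this way was not counted, here or below. Mrgprb1 and Mrgprb2 are related genes, as are Tpsab1 and Tpsb2, and reads they share may have been divided between them.

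The other 10 genes with high ratios were of several kinds, beginning with chemokines. The chemokine Ccl6 was at 8.58 FPKM in knockout and 0.606 FPKM in wild type with drug, and at 17.1 FPKM in knockout and 0.654 FPKM in wild type without. Its neighbour Ccl9 was at 7.77 FPKM in knockout and 1.06 FPKM in wild type with drug. Both lie on chromosome 11, are related in sequence and attract leukocytes. Tns1, which encodes tensin, a link between integrins and actin, was at 10.95 FPKM in knockout and 1.16 FPKM in wild type, a ratio of 2.47. Id3, an inhibitor of helix-loop-helix transcription factors, was at 16.3 FPKM in knockout and 3.72 FPKM in wild type. The calcium-binding protein gene S100a4 was at 134 FPKM in knockout and 43.4 FPKM in wild type. S100a4 was the only one of these genes above 100 FPKM. Perp, a membrane protein gene and p53 target, was at 7.59 FPKM in knockout and 1.06 FPKM in wild type, and the co-receptor gene Nrp1 was at 5.95 FPKM in knockout and 1.14 FPKM in wild type. The interferon-inducible gene Mndal, Fam102b and Rassf4 had ratios of 2.25, 2.19 and 1.59. Mndal overlaps Ifi203 and Rassf4 overlaps Depp1, and the sources used here do not say whether counting used strand.

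The lowest ratios belonged to Fblim1, Il1r2, Slco2b1 and Spint1. Fblim1 (chromosome 4, 141576062 to 141606096, minus strand), an adaptor that ties filamin to integrin adhesions, was at 1.15 FPKM in knockout and 21.1 FPKM in wild type with drug, and at 0.742 FPKM in knockout and 17.3 FPKM in wild type without. Il1r2 (chromosome 1, 40074079 to 40125231, plus strand), a decoy receptor that binds interleukin-1 without signalling, was at 3.15 FPKM in knockout and 28.7 FPKM in wild type with drug, and at 3.48 FPKM in knockout and 38.5 FPKM in wild type without. The ratios with drug were -3.36 for Fblim1 and -2.84 for Il1r2, and neither gene's knockout values overlapped its wild-type values. The organic anion transporter gene Slco2b1 was at 1.40 FPKM in knockout and 10.09 FPKM in wild type. Spint1, an inhibitor of serine proteases, was at 2.68 FPKM in knockout and 15.7 FPKM in wild type. The surface protease gene Adam8 was at 8.04 FPKM in knockout and 31.6 FPKM in wild type. Rec8, which encodes a cohesin subunit known from meiosis, was at 23.7 FPKM in knockout and 80.4 FPKM in wild type. Cd96, an immunoglobulin-family receptor, was at 16.5 FPKM in knockout and 51.3 FPKM in wild type. The aldo-keto reductase gene Akr1c12 was at 56.5 FPKM in knockout and 171 FPKM in wild type with drug, and at 108 FPKM in knockout and 352 FPKM in wild type without. For these genes too, both knockout libraries lay below both wild-type libraries, but they were picked for low ratios with drug. The histone gene Hist1h2bc, the proton pump subunit gene Atp6v0d2 and the predicted gene Gm4980 had ratios of -1.71, -1.62 and -1.92.

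**Figure D2:**
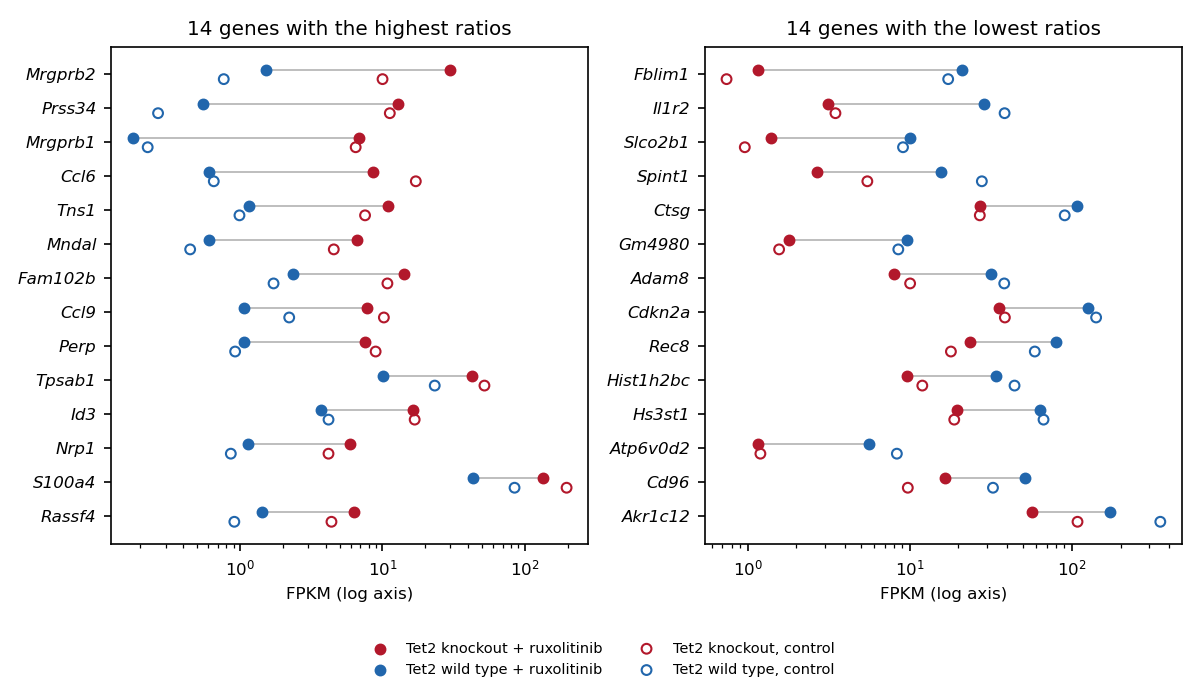
FPKM on a log axis of the 14 protein-coding genes with the highest (left) and lowest (right) ratios in the ruxolitinib pair, with knockout in red and wild type in blue, filled with ruxolitinib and open for the control libraries. For each gene the open points repeat the order of the filled ones, with both knockout libraries on the same side of both wild-type libraries. The genes were picked by their filled points, and the pairs may share animals. The share of all genes with such an order was not counted.

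Because TET2 acts on methylated cytosine, most of which lies in CpG dinucleotides, the 250 bases before the RefSeq start of each gene (assembly GRCm38.p6) were counted for CpG. Of the 9908 genes 8072 matched a promoter, with a median of 18 CpG, and 6.54% had under 5. Of the 70 genes at least 2-fold higher in knockout 53 matched, with a median of 10 CpG, and 17 of them (32.1%) had under 5. Of the 73 genes at least 2-fold lower 61 matched, with a median of 7 CpG, and 26 (42.6%) had under 5. CpG-poor promoters thus took a larger share of both sets than of all genes, whichever way the genes differed. Of 11 matched promoters of mast cell granule genes, 8 (72.7%) had under 5 CpG. No methylation was measured in these libraries. The promoters of the 3 genes with the highest ratios, of Tns1 and of Il1r2 are shown because they span this range, with CpG in capitals. They are on GRCm38.p6 at chr7:48558087-48558336 (minus strand) for Mrgprb2, chr7:48456343-48456592 (minus) for Mrgprb1, chr17:25298144-25298393 (plus) for Prss34, chr1:74124549-74124798 (minus) for Tns1 and chr1:40085843-40086092 (plus) for Il1r2.
Mrgprb2: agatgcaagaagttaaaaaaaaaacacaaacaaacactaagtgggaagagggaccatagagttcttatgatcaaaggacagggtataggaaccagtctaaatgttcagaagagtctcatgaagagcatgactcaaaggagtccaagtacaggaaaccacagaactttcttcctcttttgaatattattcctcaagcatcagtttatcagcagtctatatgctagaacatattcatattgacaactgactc
Mrgprb1: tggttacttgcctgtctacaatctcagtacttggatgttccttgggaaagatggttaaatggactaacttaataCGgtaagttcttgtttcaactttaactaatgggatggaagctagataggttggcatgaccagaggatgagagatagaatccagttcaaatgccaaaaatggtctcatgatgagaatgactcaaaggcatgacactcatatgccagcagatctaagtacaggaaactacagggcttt
Prss34: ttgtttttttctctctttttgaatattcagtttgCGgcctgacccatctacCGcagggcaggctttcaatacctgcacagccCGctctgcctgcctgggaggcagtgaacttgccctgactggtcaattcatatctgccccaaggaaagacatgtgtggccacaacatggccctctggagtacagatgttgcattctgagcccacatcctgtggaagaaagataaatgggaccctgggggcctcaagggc
Tns1: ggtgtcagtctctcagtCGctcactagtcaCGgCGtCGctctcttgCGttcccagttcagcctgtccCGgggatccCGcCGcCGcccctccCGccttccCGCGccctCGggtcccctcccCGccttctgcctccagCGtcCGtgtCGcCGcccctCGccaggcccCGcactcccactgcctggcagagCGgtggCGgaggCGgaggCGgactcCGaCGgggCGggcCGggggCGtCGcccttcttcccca
Il1r2: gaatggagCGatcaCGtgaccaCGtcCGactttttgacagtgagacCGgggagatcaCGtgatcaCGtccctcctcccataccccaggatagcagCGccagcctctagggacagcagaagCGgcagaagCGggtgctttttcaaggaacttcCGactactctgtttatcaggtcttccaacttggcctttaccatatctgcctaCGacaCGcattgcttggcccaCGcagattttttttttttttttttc
The Mrgprb2 window holds 0 CpG, that of Mrgprb1 holds 1 and that of Prss34 holds 3, against 30 for Tns1 and 14 for Il1r2. The RefSeq start used for Il1r2 lies inside the longer GENCODE gene, so other starts of this gene were not examined.

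Mast cell granule genes differed gene by gene. Of 16 measured granule proteases and proteoglycan genes, 3 were higher by 1.5-fold or more in knockout with drug and 4 lower by as much. Over all genes the shares were 2.41% and 2.73%. The median ratio of the granule genes was -0.075, or 0.059 under TPM. The chymase gene Cma1, the most abundant of the granule genes that have an estimate, was at 10118 FPKM in knockout and 15834 FPKM in wild type, a ratio of -0.65. Mcpt1 was at 263 FPKM in knockout and 632 FPKM in wild type, and Mcpt2 at 2043 FPKM in knockout and 3518 FPKM in wild type. These mucosal mast cell proteases are related in sequence, so reads may be divided between them. The protease gene Ctsg (cathepsin G) was at 27.3 FPKM in knockout and 108 FPKM in wild type. In contrast Mcpt8, a basophil protease gene, was at 254 FPKM in knockout and 95.6 FPKM in wild type with drug, and at 277 FPKM in knockout and 94.4 FPKM in wild type without. Mcpt4, a chymase gene of connective tissue mast cells shown for comparison, was at 2981 FPKM in knockout and 2940 FPKM in wild type. The carboxypeptidase gene Cpa3 is listed at 0 in every library, and the authors' deposited table marks it as holding too many fragments to estimate. In bulk RNA, fewer cells of a type and less RNA per cell cannot be told apart.

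**Figure D3:**
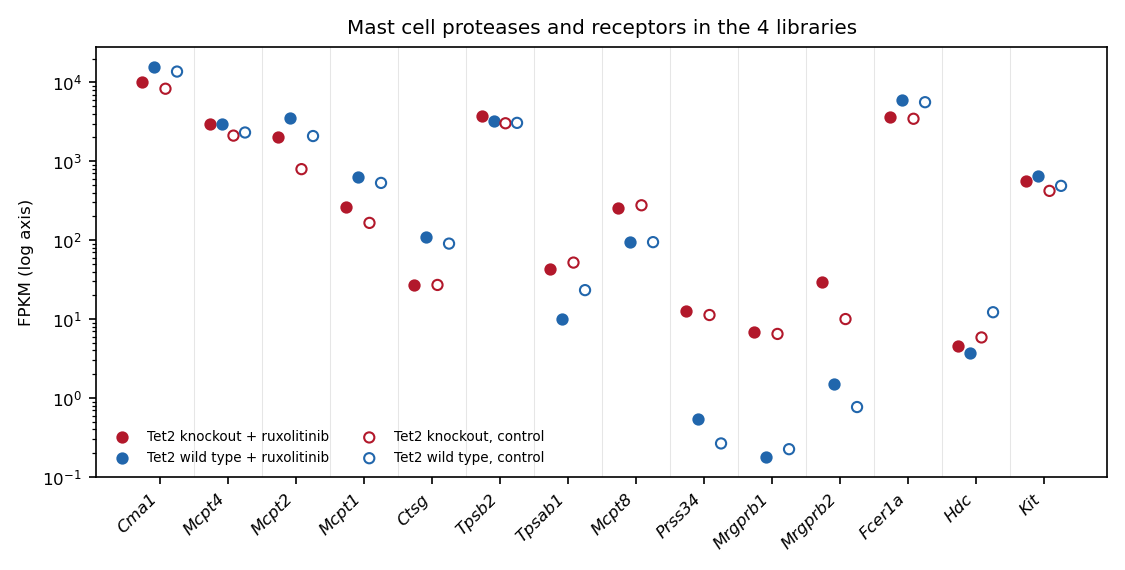
FPKM on a log axis of 14 mast cell and basophil genes in the 4 libraries, with knockout red and wild type blue, filled with ruxolitinib and open without. Cma1, Mcpt1, Mcpt2, Ctsg and Fcer1a points are lower in knockout, while Tpsab1, Mcpt8, Prss34, Mrgprb1 and Mrgprb2 points are higher.

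Of 25 measured genes of the IgE receptor and its proximal signalling, 0 were higher by 1.5-fold or more in knockout with drug and 1 was lower by as much, with 18 below 0 and a median of -0.21. Over all genes 2.41% were higher and 2.73% lower by as much, and 50.5% were above 0, so the count at 1.5-fold was near the background. The lower gene was Fcer1a (chromosome 1, 173221284 to 173227214, minus strand), the IgE-binding chain, at 3648 FPKM in knockout and 6008 FPKM in wild type. The shared chain Fcer1g was at 694 FPKM in knockout and 978 FPKM in wild type, and the inhibitory receptor gene Fcgr2b at 54.4 FPKM in knockout and 37.5 FPKM in wild type. The median of 14 genes for mediator synthesis was -0.28, with 11 below 0 and 2 lower by 1.5-fold or more. Those were Hs3st1, a heparan sulfotransferase gene at 19.5 FPKM in knockout and 63.4 FPKM in wild type, and Ddc, which makes serotonin and dopamine, at 8.84 FPKM in knockout and 14.4 FPKM in wild type. Alox5ap, the helper of leukotriene synthesis, was at 636 FPKM in knockout and 925 FPKM in wild type, and Tph1, the first enzyme of serotonin synthesis, at 1197 FPKM in knockout and 1689 FPKM in wild type. Both lists had nearly the same medians without drug, -0.26 and -0.31.

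Among 32 mast cell surface receptor genes, 6 were higher by 1.5-fold or more in knockout with drug and 5 lower by as much. Over all genes the shares were 2.41% and 2.73%. The list median was -0.11, or 0.018 under TPM, a scaling that moved the median gene up by 0.13. Beside the Mrgprb genes, the integrin gene Itgae was at 6.67 FPKM in knockout and 1.73 FPKM in wild type. The leukotriene receptor gene Ltb4r1 was at 0.837 FPKM in knockout and 2.69 FPKM in wild type. Of 37 lineage transcription factor genes, 4 were higher by 1.5-fold or more and 2 lower by as much, against the same shares. The median of this list was -0.071, or 0.054 under TPM. The lower ones were Lyl1, at 72.5 FPKM in knockout and 121 FPKM in wild type, and its partner Lmo2, at 22.2 FPKM in knockout and 36.8 FPKM in wild type. The higher ones included the Id3 relative Id1, at 1.99 FPKM in knockout and 0.514 FPKM in wild type, and Hoxb4, a stem cell homeobox gene, at 1.67 FPKM in knockout and 0.561 FPKM in wild type.

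Markers of other cell types were described by their summed FPKM in each genotype. The 15 basophil genes summed to 4952 to 5192 FPKM in the knockout libraries and 7302 to 7626 FPKM in the wild-type libraries. These sums hold Fcer1a, at 3648 FPKM in knockout and 6008 FPKM in wild type with drug. Of the 13 measured, 7 had a ratio above 0 with drug, Mcpt8 and Prss34 among them, and 6 below. Over all genes 50.5% were above 0. Of all 15 genes, 14 reached 1 FPKM in knockout against 11 or 12 in wild type. The 16 granulocyte-monocyte progenitor genes summed to 861 to 1171 FPKM in knockout and 893 to 1051 FPKM in wild type, with Fcnb and Csf3r at 0 in the ruxolitinib pair. Of the 7 measured, 3 had a ratio above 0 with drug and 4 below, with a median of -0.15. Ctsg, Plac8 and Ms4a3 were lower by 1.5-fold or more and 0 higher, against 2.73% and 2.41% of all genes. With drug Ctsg was at 27.3 FPKM in knockout and 108 FPKM in wild type. Plac8 was at 23.4 FPKM in knockout and 50.3 FPKM in wild type, and both genes are small beside these sums. The 22 monocyte and macrophage genes summed to 53.4 to 63.7 FPKM in knockout and 76.2 to 76.4 FPKM in wild type, with Lyz1 and Marco at 0. In that list the lipid carrier gene Apoe was at 12.4 FPKM in knockout and 3.49 FPKM in wild type with drug, and the coagulation factor gene F13a1 at 3.50 FPKM in knockout and 9.66 FPKM in wild type. The 24 megakaryocyte and platelet genes in the table summed to 1458 to 1555 FPKM in knockout and 2047 to 2051 FPKM in wild type. These sums hold Itga2b, at 529 FPKM in knockout and 743 FPKM in wild type with drug. Of the 13 measured, 11 had a ratio below 0 with drug, with a median of -0.19. Of the 2 above 0, Itgb3 was at 22.5 FPKM in knockout and 11.6 FPKM in wild type. Gp6 and Tubb1 of that list were among those at 0 in the ruxolitinib pair. The 20 stem and early progenitor genes summed to 1596 to 1962 FPKM in knockout and 2088 to 2385 FPKM in wild type. These sums hold Ly6a, at 749 FPKM in knockout and 1033 FPKM in wild type with drug. Of the 12 measured, 9 were below 0, with a median of -0.25. Of the 3 above 0, Cd48 was at 51.4 FPKM in knockout and 23.5 FPKM in wild type. Hoxa9 of that list was among those at 0 in the ruxolitinib pair. The 12 mature neutrophil genes in the table summed to 1.85 to 2.64 FPKM in knockout and 0.337 to 0.573 FPKM in wild type. Of 13 B cell genes none reached 1 FPKM in any library. The part of other cell types in the mast cell ratios was not tested.

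DNA replication genes were higher in knockout under ruxolitinib, with all licensing genes on the same side. Licensing loads the replicative helicase onto origins before S phase. All 27 measured licensing and initiation genes had a ratio above 0, with a median of 0.57, against 50.5% of all genes. All 27 were also above 0 in the control pair, against 50.7% of all genes there. At 1.5-fold or more 13 were higher and 0 lower, against 2.41% and 2.73% of all genes. Cdt1 (chromosome 8, 122568015 to 122573554, plus strand), which loads the helicase, was at 33.2 FPKM in knockout and 18.9 FPKM in wild type with drug, and at 31.3 FPKM in knockout and 16.3 FPKM in wild type without. The origin recognition gene Orc1 was at 5.98 FPKM in knockout and 3.13 FPKM in wild type. Cdc45, a helicase activator gene, was at 29.999 FPKM in knockout and 17.5 FPKM in wild type, and the helicase subunit gene Mcm5 at 85.5 FPKM in knockout and 51.0 FPKM in wild type. Each of these genes was higher in both knockout libraries than in either wild-type library, an order not counted over all genes. Cdt1 overlaps another annotated gene, Gm20388, and Cdc45 overlaps Ufd1. The authors' deposited table called 21 of the 27 higher and 0 lower, against 6.72% and 6.11% of all genes it tested.

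The median of the licensing list was 0.70 in the control pair. Polymerases and fork factors followed with a median of 0.50 over 30 genes with drug and 0.64 without. With drug 11 of the 30 were higher by 1.5-fold or more and 0 lower, against 2.41% and 2.73% of all genes. Timeless, a fork protection gene, was at 15.4 FPKM in knockout and 9.19 FPKM in wild type, and Prim1, the catalytic primase subunit gene, at 45.5 FPKM in knockout and 27.9 FPKM in wild type. The median of 28 nucleotide supply genes was 0.35 with drug and 0.54 without, with 4 higher by 1.5-fold or more with drug. They included Tyms, the thymidylate synthase gene, at 33.5 FPKM in knockout and 18.7 FPKM in wild type.

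Replication genes are classical targets of E2F factors, which act at the entry into S phase, so the same 250 bases were searched on both strands for the E2F motifs TTTCCCGC, TTTCGCGC, TTTGCCGC and TTTGGCGC. At least 1 was found in 4.20% of all 8072 promoters. It was found in 8 of 20 matched promoters of the licensing list (40%), those of Cdc6, Orc1, Orc3, Mcm5, Mcm6, Mcm7, Gins3 and Topbp1. The ratios of these 8 genes with drug ran between 0.014 for Orc3 and 0.76 for Orc1. The share was 15.4% for polymerases and fork factors (4 of 26), 27.3% for regulators of the G1 to S transition (6 of 22), 33.3% for cohesin and condensin (4 of 12) and 3.33% for mitosis genes (1 of 30). It was 0 of 53 for genes at least 2-fold higher in knockout and 2 of 61 (3.28%) for those lower by as much. The letters are a description of these windows and not evidence of binding. The promoters of Mcm5, Mcm6 and Orc1 are shown as examples of genes higher in knockout, with motif matches in capitals. They are on GRCm38.p6 at chr8:75109259-75109508 (plus) for Mcm5, chr1:128359706-128359955 (minus) for Mcm6 and chr4:108579204-108579453 (plus) for Orc1.
Mcm5: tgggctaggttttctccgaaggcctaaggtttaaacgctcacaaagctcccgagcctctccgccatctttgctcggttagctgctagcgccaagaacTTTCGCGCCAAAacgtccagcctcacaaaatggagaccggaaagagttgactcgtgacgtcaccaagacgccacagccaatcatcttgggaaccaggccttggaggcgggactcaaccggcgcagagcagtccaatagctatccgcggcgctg
Mcm6: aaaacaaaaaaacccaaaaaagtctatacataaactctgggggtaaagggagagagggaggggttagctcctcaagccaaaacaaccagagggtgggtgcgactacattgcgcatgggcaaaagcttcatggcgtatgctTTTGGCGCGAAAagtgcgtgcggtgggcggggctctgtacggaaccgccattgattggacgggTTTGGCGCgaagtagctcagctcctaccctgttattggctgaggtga
Orc1: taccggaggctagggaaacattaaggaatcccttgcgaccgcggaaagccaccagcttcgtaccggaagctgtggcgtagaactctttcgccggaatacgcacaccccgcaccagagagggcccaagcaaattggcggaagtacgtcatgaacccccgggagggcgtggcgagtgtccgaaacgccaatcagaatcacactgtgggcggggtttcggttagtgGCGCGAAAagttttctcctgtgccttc
Mcm5 has 2 overlapping matches that start 153 and 149 bases before the gene start. Mcm6 has 3, of which the first 2 overlap, starting 110, 106 and 47 bases before it, and Orc1 has 1 at 27 bases. The GENCODE start of Orc1, 108579423, lies inside the window shown, so this match is inside the longer GENCODE gene. Mcm6, named here for its promoter, was at 141.7 FPKM in knockout and 93.3 FPKM in wild type with drug.

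**Figure D4:**
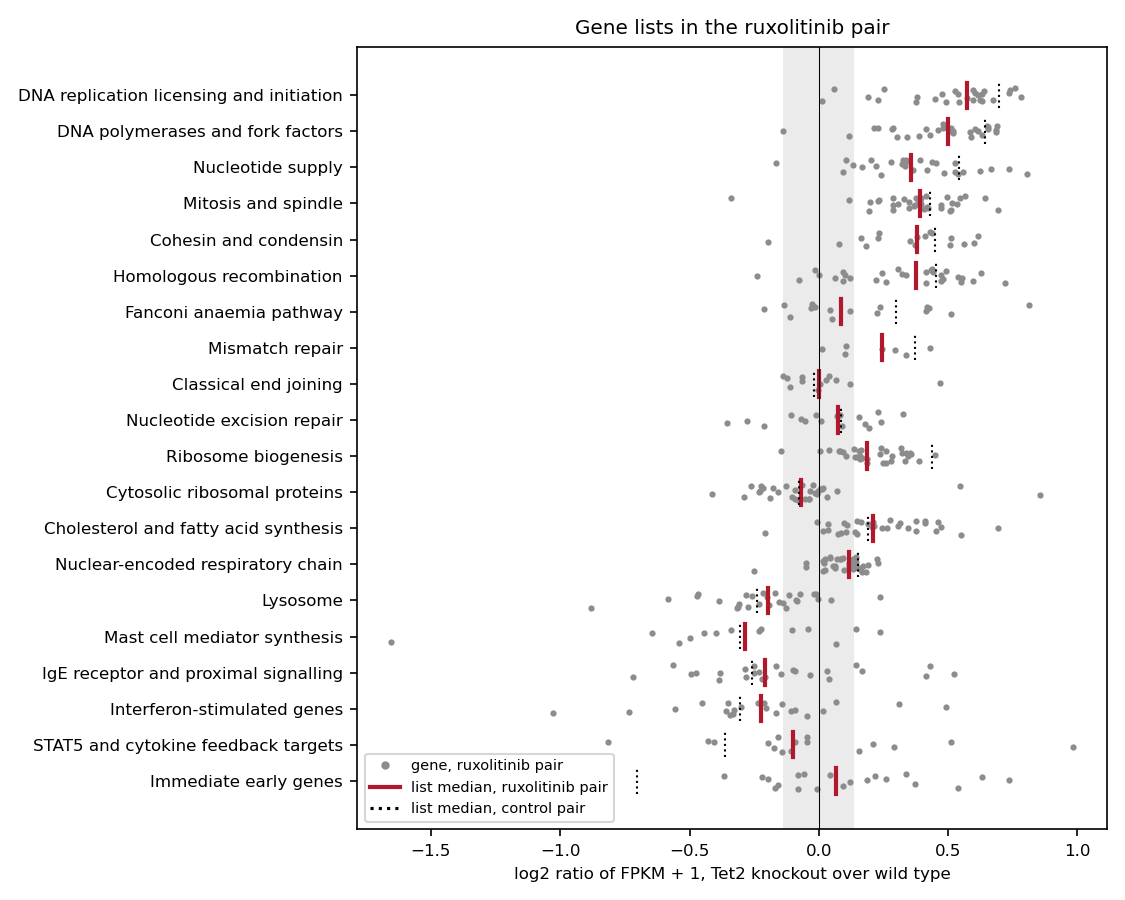
Log2 ratio of FPKM + 1, knockout over wild type, of each measured gene (grey points) in 20 gene lists in the ruxolitinib pair, with the list median in red, the control pair's median as a dotted line and the quartiles of all 9908 genes shaded. Replication lists lie to the right, mast cell mediator, IgE and lysosome lists to the left, and the immediate early median lies near 0 with drug but at -0.70 without.

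The genes that govern entry into S phase differed in both directions. Of 29 measured, 3 were higher by 1.5-fold or more in knockout with drug and 3 lower by as much. Over all genes the shares were 2.41% and 2.73%. Cdkn2a (chromosome 4, 89274471 to 89294653, minus strand), which encodes the cell cycle inhibitors p16 and p19 of the mouse, was at 35.8 FPKM in knockout and 126 FPKM in wild type with drug, and at 38.7 FPKM in knockout and 141 FPKM in wild type without. Its neighbour Cdkn2b, a related inhibitor gene, was at 1.18 FPKM in knockout and 3.05 FPKM in wild type with drug. The cyclin D genes differed in opposite directions. Ccnd1 was at 20.02 FPKM in knockout and 8.72 FPKM in wild type with drug, and at 13.9 FPKM in knockout and 7.29 FPKM in wild type without, whereas Ccnd2 was at 129 FPKM in knockout and 227 FPKM in wild type with drug, and at 145 FPKM in knockout and 247 FPKM in wild type without. Both partner the kinases CDK4 and CDK6. None of these 4 genes had overlapping values between the genotypes, and the share of all genes without overlap was not counted. Ccnd1 overlaps an annotated gene, LTO1.

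Mitosis genes were higher by less. Of 35 measured, 34 were above 0, against 50.5% of all genes, with a median of 0.39. Only Ndc80 and Mybl2, 2 of the 35, were higher by 1.5-fold or more, against 2.41% of all genes. Ndc80, a kinetochore gene, was at 28.2 FPKM in knockout and 17.03 FPKM in wild type, and Mybl2, a mitotic transcription factor gene, at 11.6 FPKM in knockout and 7.07 FPKM in wild type. The authors' deposited table called 20 of the 35 higher and 0 lower, against 6.72% and 6.11% of all genes it tested. Cohesin and condensin genes had a median of 0.38 over 17 genes, with the condensin subunit gene Ncaph at 46.9 FPKM in knockout and 30.2 FPKM in wild type.

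The 8 repair and checkpoint lists had medians between -0.00 and 0.38 under ruxolitinib, and the differences between them were not tested. Homologous recombination had the highest, 0.38 over 30 genes, which was 0.21 with a pseudocount of 5 and 0.25 over genes at a mean of 5 FPKM or more. Of its genes 3 were higher by 1.5-fold or more and 0 lower by as much, against 2.41% and 2.73% of all genes. The higher ones of this list included the helicase gene Hells, at 24.6 FPKM in knockout and 14.6 FPKM in wild type, and the translocase gene Rad54l. Classical end joining had a median of -0.00 over 12 genes, or 0.13 under TPM, which is the shift of the median gene under that scaling. In that list Rif1, which shields broken ends, stood apart at 10.7 FPKM in knockout and 7.43 FPKM in wild type, and the kinase gene Prkdc, given for comparison, was at 3.45 FPKM in knockout and 3.65 FPKM in wild type. Of 12 alternative end joining and single-strand break genes 1 passed 1.5-fold, Parp3, at 12.5 FPKM in knockout and 21.4 FPKM in wild type. In the same list Polq, the polymerase gene of that pathway, was at 3.59 FPKM in knockout and 2.26 FPKM in wild type. Parp3 was thus lower and Polq higher, at a list median of 0.064. In the Fanconi anaemia pathway, for DNA crosslinks, 1 of 16 genes passed 1.5-fold, Fanca, at 8.23 FPKM in knockout and 4.26 FPKM in wild type. In base excision repair 2 of 12 did, Ung and Mutyh, both higher in knockout, against 2.41% of all genes. The nucleotide excision repair list had 0 of 18 past 1.5-fold and a median of 0.073. In the mismatch repair list 7 of 7 genes were above 0, against 50.5% of all genes, with a median of 0.24. In the DNA damage checkpoint list 15 of 16 were above 0, with a median of 0.19. Neither list had a gene past 1.5-fold.

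The 15 measured DNA methylation and demethylation genes had a median of 0.021, with 9 above 0, against 50.5% of all genes. Higher by 1.5-fold or more were 2 of the 15, Uhrf1 and Zfp57, against 2.41% of all genes. Zfp57 was at 3.39 FPKM in knockout and 1.86 FPKM in wild type. Dnmt1, which copies methylation after replication, was at 86.1 FPKM in knockout and 60.8 FPKM in wild type with drug, and its recruiter Uhrf1 at 59.7 FPKM in knockout and 37.7 FPKM in wild type. The de novo methyltransferase gene Dnmt3a was at 9.46 FPKM in knockout and 9.31 FPKM in wild type. Cxxc5, a CpG-binding protein gene of a family that interacts with TET2, was at 14.3 FPKM in knockout and 29.2 FPKM in wild type with drug, and at 11.5 FPKM in knockout and 29.7 FPKM in wild type without. It was the only one of 15 measured genes in this list lower by 1.5-fold or more. Of 23 Polycomb and ASXL regulator genes and 29 other chromatin genes, 0 passed 1.5-fold in either direction.

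With JAK1 and JAK2 inhibited, the pathway targets Cish and Pim1 lay closer together in the 2 genotypes than without drug, while other members of their list did not all do so. Cish, a feedback inhibitor and STAT5 target, was at 40.7 FPKM in knockout and 45.1 FPKM in wild type with drug, against 114 FPKM in knockout and 174 FPKM in wild type without. Pim1, a survival kinase gene, was at 48.3 FPKM in knockout and 55.5 FPKM in wild type with drug, against 98.6 FPKM in knockout and 148 FPKM in wild type without. The genotype ratio was -0.14 for Cish and -0.20 for Pim1 with drug, and -0.61 and -0.58 without. Over 16 STAT5 and cytokine feedback genes the median was -0.10 with drug, or 0.013 under TPM, and -0.36 without. At 1.5-fold or more, 1 was lower with drug and 5 without, against 2.73% and 4.48% of all genes. Ccnd2 was the lower gene with drug, and Id1, described above, the higher one. Socs2, another feedback inhibitor gene, had a ratio of -0.40 with drug and -0.41 without, at 14.1 FPKM in knockout and 19.0 FPKM in wild type with drug. Socs3, a feedback inhibitor gene of the same family, was at 2.47 FPKM in knockout and 1.43 FPKM in wild type with drug, and at 9.77 FPKM in knockout and 19.01 FPKM in wild type without. Its ratio was 0.51 with drug and -0.89 without.

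The kinase gene Jak2 (chromosome 19, 29251828 to 29313080, plus strand) was at 24.9 FPKM in knockout and 35.1 FPKM in wild type with drug, and at 24.5 FPKM in knockout and 36.8 FPKM in wild type without, so both knockout libraries were lower. Stat3 was at 32.8 FPKM in knockout and 49.5 FPKM in wild type with drug, a ratio of -0.58, and overlaps the end of Stat5a. The JAK-STAT core list of 22 genes had 0 past 1.5-fold and a median of -0.023, or 0.10 under TPM.

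Immediate early genes, which growth and stress signals induce within minutes, had the widest gap between the pairs among the 50 lists described. Their median over 20 genes was 0.068 with drug and -0.70 without. Lower by 1.5-fold or more were 0 with drug and 12 without, against 2.73% and 4.48% of all genes. The count with drug was thus near its background. Nr4a1, a nuclear receptor gene, was at 7.99 FPKM in knockout and 6.73 FPKM in wild type with drug, and at 8.46 FPKM in knockout and 37.8 FPKM in wild type without. Egr3, a zinc finger factor gene, was at 40.2 FPKM in knockout and 31.6 FPKM in wild type with drug, and at 40.1 FPKM in knockout and 136 FPKM in wild type without. For both genes the wild-type control library stood alone as high. Jun was at 23.2 FPKM in knockout and 30.2 FPKM in wild type with drug, and at 22.03 FPKM in knockout and 51.6 FPKM in wild type without. Among protein-coding genes at 5 FPKM or more in either library of the ruxolitinib pair, the 6 largest differences between the ratio with drug and the ratio without were those of Nr4a1 (2.25), Egr3 (2.07), the chemokine gene Ccl7 (1.76), Egr1 (1.501), Klf2 (1.20) and the receptor gene Cd300lb (1.11). At the other end, under the same floor, stood Ccl6 and Msmp (-0.88 each), Rpl17 (-0.66), Ms4a3 and Ydjc (-0.62 each) and H2-T22 (-0.58). These 12 were picked for that difference, so their size is a description. Below that floor the difference was 3.45 for Rnaset2a, 2.26 for Il13, 2.06 for Ccl4, 1.41 for Socs3 and -3.50 for Pet117.

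**Figure D5:**
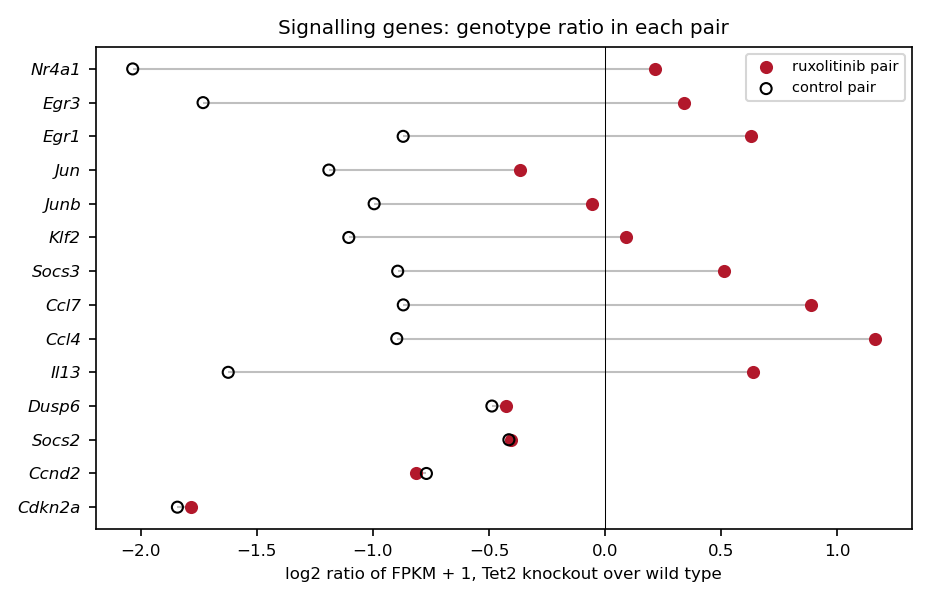
Log2 ratio of FPKM + 1, knockout over wild type, of 14 signalling and cell cycle genes in the ruxolitinib pair (filled red) and the control pair (open black). The early response, Socs3, chemokine and Il13 points are negative in the control pair and nearer to 0 or above it in the ruxolitinib pair, while Dusp6, Socs2, Ccnd2 and Cdkn2a have nearly equal ratios in both pairs.

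Cytokine genes had a median of 0.22 over 21 genes with drug and -0.19 without. With drug 6 were higher by 1.5-fold or more and 0 lower by as much, against 2.41% and 2.73% of all genes. The largest ratios of this list were those of the chemokine genes Ccl6, Ccl9 and Ccl4 and of Hgf. Hgf, the hepatocyte growth factor gene, was at 1.94 FPKM in knockout and 0.487 FPKM in wild type with drug, and at 2.88 FPKM in knockout and 0.470 FPKM in wild type without. Of these, Ccl6, Ccl9 and Hgf were higher in knockout in both pairs, and Ccl4 was not. Of 29 receptor genes, 2 were higher by 1.5-fold or more and 4 lower, against the same shares of all genes. Beside Il1r2, the chemokine receptor gene Ccr2 was at 5.21 FPKM in knockout and 1.37 FPKM in wild type, the fractalkine receptor gene Cx3cr1 at 6.02 FPKM in knockout and 14.05 FPKM in wild type, and the erythropoietin receptor gene Epor at 3.29 FPKM in knockout and 6.37 FPKM in wild type. Interferon-stimulated genes had a median of -0.22 over 22 genes, on a scale where TPM moved the median gene up by 0.13. Of the 22, 18 were below 0 and 4 above, against 50.5% of all genes above 0. Lower by 1.5-fold or more were 2, against 2.73% of all genes. The abundant one was Ifitm1, a membrane protein gene that restricts viral entry, at 1072 FPKM in knockout and 2188 FPKM in wild type with drug, and at 1596 FPKM in knockout and 2900.3 FPKM in wild type without.

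Biosynthetic genes differed by small steps. Over all genes 50.5% were above 0 with drug, 2.41% were higher by 1.5-fold or more and 2.73% lower by as much. Of 33 ribosome biogenesis genes 32 were above 0, with a median of 0.19 with drug and 0.44 without, but 0 passed 1.5-fold. Nolc1, a nucleolar chaperone gene, was at 39.6 FPKM in knockout and 28.7 FPKM in wild type. Cholesterol and fatty acid synthesis had a median of 0.21 over 33 genes, with 31 above 0 and 1 past 1.5-fold, the elongase gene Elovl6, at 7.21 FPKM in knockout and 4.08 FPKM in wild type. Lysosome genes lay the other way, with 26 of 28 below 0 and a median of -0.20, or -0.066 under TPM. Man2b1, a lysosomal mannosidase gene, was the 1 gene past 1.5-fold, at 149 FPKM in knockout and 275 FPKM in wild type. In glycolysis, with 2 of 25 genes higher by 1.5-fold or more and 1 lower, the phosphofructokinase gene Pfkp was at 24.2 FPKM in knockout and 50.02 FPKM in wild type and the hexokinase gene Hk2 at 11.7 FPKM in knockout and 5.58 FPKM in wild type. Txnip, a glucose-responsive inhibitor of thioredoxin, was at 160 FPKM in knockout and 270 FPKM in wild type.

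Cytoskeleton and adhesion genes had 6 of 39 higher by 1.5-fold or more and 6 lower by as much. Over all genes the shares were 2.41% and 2.73%. The list median of -0.10 became 0.030 under TPM. Beside Fblim1 and S100a4, the annexin gene Anxa2 was at 5.84 FPKM in knockout and 1.54 FPKM in wild type, and the surface glycoprotein gene Cd24a at 20.8 FPKM in knockout and 7.82 FPKM in wild type.

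Most genes near Tet2 and near Jak2 stayed close to equal. Within 2 Mb of Tet2, 11 measured genes had ratios between -0.41 and 0.36 with a median of 0.00, and 0 passed 1.5-fold. Within 2 Mb of Jak2, 16 genes had a median of 0.063, and 1 passed 1.5-fold, the immune checkpoint ligand gene Pdcd1lg2 (chromosome 19, 29410919 to 29471161, plus strand), at 3.77 FPKM in knockout and 1.94 FPKM in wild type with drug, and at 3.09 FPKM in knockout and 2.34 FPKM in wild type without.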

How the data were processed

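Total RNA, depleted of ribosomal RNA per the labels' protocols, was sequenced in 4 libraries of 1 per group. The authors deposited FPKM values per gene symbol, made with STAR and Cuffdiff on mm10 per the submitters' processing notes; versions, annotation, strand use and scaling are not stated there. The authors' deposited comparison table gives log2 fold changes without a pseudocount, p-values and q-values per gene, with a test statistic, a score that was not used, like the p-values. Groups were read from the labels' titles.

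Ratios were log2 of FPKM + 1, knockout over wild type, which understates the difference of low genes. Coordinates and gene types came from GENCODE M21 or RefSeq, which matched 9888 of the 9908 genes; promoters came from RefSeq (GRCm38.p6). Lists with 5 or more measured genes were described by their median and their counts at 1.5-fold. The members and the 56 lists were chosen with earlier results of these data known. Genes were named by rule: the 14 highest and 14 lowest protein-coding genes that reached 5 FPKM in either library, up to 4 of the largest ratios per list, the 6 largest and 6 smallest differences between pairs, genes past 1.5-fold within 2 Mb of Tet2 or Jak2, and a fixed set around TET, JAK and STAT genes. Other names are marker genes or were chosen after their values were seen. Some genes that these rules name are not reported here. Of low values, 77.1% to 84.6% lay within 0.15 of a whole multiple of 1 fragment. The ratio steps were tested on simulated data. Alternatives were pseudocounts of 0.1 and 5, no filter, a filter of 5 FPKM, median centring, TPM and a 3-fold rule. Python 3.11.15, numpy 2.4.6, pandas 2.3.3, Biopython 1.88 and matplotlib 3.10.9 were used.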

Additional observations from a re-analysis of the deposited data

Results flagged for a closer look

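For 6 genes the genotype ratio pointed one way with ruxolitinib and the other way without it, each by at least 1.5-fold, and the difference was not tested because each group is 1 library. The chemokine gene Ccl4 had a ratio of 1.16, at 3.37 FPKM in knockout and 0.951 FPKM in wild type with drug, and -0.90 at 2.97 FPKM in knockout and 6.39 FPKM in wild type without. The chemokine gene Ccl7 had a ratio of 0.89 with drug and -0.87 without, and was at 11.7 FPKM in knockout and 5.90 FPKM in wild type with drug. The early growth response gene Egr1 had a ratio of 0.63 with drug and -0.87 without, at 26.3 FPKM in knockout and 16.6 FPKM in wild type with drug. The type 2 cytokine gene Il13 had a ratio of 0.64 with drug and -1.62 without, at 1.34 FPKM in knockout and 0.500 FPKM in wild type with drug, and 5.05 FPKM in knockout and 17.7 FPKM in wild type without. Each of these 4 genes was highest in untreated wild-type cells. Pet117, which overlaps Kat14, had a ratio of -1.99 with drug and 1.51 without, and Rnaset2a, which has a near-identical copy, Rnaset2b, had a ratio of 1.78 with drug and -1.67 without; reads of both can be divided between genes.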

How the results depend on the processing

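No paired analysis was possible because each group is 1 library and the labels carry no replicate numbers, and for the same reason no replicate could be left out. The counts of 70 higher and 73 lower genes at 2-fold became 115 and 127 with a pseudocount of 0.1, 20 and 26 with a pseudocount of 5, 82 and 77 without a filter, 34 and 50 at a mean of 5 FPKM, 69 and 73 after median centring, 117 and 68 under TPM and 20 and 21 at 3-fold. Over protein-coding genes, an alternative chosen after seeing the data, they were 65 and 64. Under TPM the list medians were 0.73 for licensing, 0.64 for polymerases and fork factors, 0.53 for mitosis, 0.54 for homologous recombination, 0.36 for cytokines, -0.15 for mediator synthesis, 0.32 for ribosome biogenesis and -0.066 for lysosome, with the median gene at 0.13. With a pseudocount of 5 licensing was at 0.43 and homologous recombination at 0.21, and homologous recombination was at 0.25 with the filter of 5 FPKM. Without a filter cytokines were at 0.00 and mediator synthesis at -0.10. Of list medians at least 0.1 from 0, signs turned for mast cell surface receptors (0.018) and cytoskeleton (0.030) under TPM and for granulocyte-monocyte progenitor genes (0.093) without a filter. Of those nearer to 0, signs turned for 12 of the 50 lists under TPM, 7 with the filter of 5 FPKM, 1 without a filter and 1 with a pseudocount of 0.1. Of 298 list medians recomputed in all, 236 moved by less than 0.1. Beyond the arithmetic of each setting, the cause was not tested. Values under 5 FPKM, such as those of Hgf and Il13 with drug, rest on fewer fragments than higher values at equal transcript length.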

Other observations

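Some genes were nearly silent in 1 genotype. At under 0.25 FPKM in both libraries of a genotype and at least 2-fold apart with drug, 7 genes were low in knockout and 7 in wild type, and 6 of these 14 lie on chromosome 13. The pseudogene Rpl34-ps1 was listed at 0 in knockout and at 835 FPKM in wild type with drug, and at 0 in knockout and 880.04 FPKM in wild type without, and shares its sequence with the ribosomal protein gene Rpl34. The zinc finger gene Zfp429 (chromosome 13, 67387905 to 67399819, minus strand) was at 0.105 FPKM in knockout and 4.65 FPKM in wild type with drug. The gluconeogenic enzyme gene Fbp1 (chromosome 13, 62864753 to 62888282, minus strand) was at 4.34 FPKM in knockout and 0.179 FPKM in wild type. The growth factor receptor gene Pdgfrb was at 2.21 FPKM in knockout and 0.151 FPKM in wild type. Chromosome 13 held 14 genes at 2-fold or more of 380 measured (3.68%) and chromosome 19 held 0 of 371. These were the highest and lowest shares of any autosome. Over all 9908 genes 0.706% were higher and 0.737% lower by 2-fold or more. The genes and chromosomes in this paragraph were chosen after their values were seen, and Rpl34-ps1 and Ifi203, which overlaps Mndal, share reads with other genes.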
